A study of Danio rerio with 7 samples.

Results

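The transcriptome described here is that of sox10-positive cells sorted from zebrafish (Danio rerio) embryos that had received no morpholino, which form the baseline of a series titled for DDX21, an RNA helicase, and its part in nucleotide stress. It was read from the deposited libraries of uninjected embryos kept in the solvent DMSO, 2 of the 7 samples that the labels list, and no library of an injected embryo was used. The protocols in the labels say that embryos grew at 28 °C and were held in DMSO between 50% epiboly and 15 somites, after which they were dissociated and sorted for sox10, and that RNA depleted of ribosomal RNA was turned into low-input libraries. The table names these libraries by an amount, 5 ng and 10 ng, which the labels do not explain, so they may be technical replicates. The sources used here do not say how sox10-positive cells were marked for sorting, how many were sorted or from how many embryos.

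The neural crest is a population of vertebrate embryonic cells that arises at the border of the neural plate, leaves the neural tube and migrates through the embryo. It gives rise to pigment cells, peripheral neurons and glia, and the cartilage of the face. Its formation is described as a cascade in which border genes (tfap2a, pax3, pax7, msx, zic) come on first and crest specifiers (sox10, foxd3, snai, twist1) follow, after which cells choose a lineage. Sox10, an SRY-box transcription factor, is also made in the otic vesicle, the forerunner of the inner ear.

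Levels are FPKM, a count of sequenced fragments divided by transcript length and library size, so genes of different length can be set side by side. Each gene's mean over both libraries was placed among 29763 ranked genes, and its percentile is the share of them with a lower mean. Spike-ins and entries with names of small non-coding RNA were left out of the ranking. The 3226 entries with clone names only stayed in. They took 21.4% of summed FPKM in the 5 ng and 11.3% in the 10 ng library. Of the ranked genes, 43.7% had a mean of 1 FPKM or more and 13.9% had 10 FPKM or more. The counts of list members below are to be read against these shares. By library, 12764 genes reached 1 FPKM in the 5 ng library and 13098 in the 10 ng library, and 11702 reached it in both. The number of sequenced fragments is not given with the table, so levels carry no counting interval, and the spread between the libraries is the error available. All values are descriptions of 1 group, and no test was made.

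The 5 genes taken to mark these cells were all present in both libraries. Sox10, for which the cells were sorted, stood at 134 and 147 FPKM in the 5 ng and the 10 ng library, at rank 285 of the 29763 genes. Tfap2a, an AP-2 factor needed for crest induction, stood at 136 and 149 FPKM. Twist1a, a basic helix-loop-helix factor of migrating and cranial crest, had 103 and 119 FPKM. The ranges of sox10 and tfap2a over the libraries overlapped, with tfap2a slightly higher in each library, and that of twist1a lay below both. Ednrab, an endothelin receptor of crest cells, was the highest of the 5 at 316 and 332 FPKM. Pax7b, a paired-box factor of the neural plate border, was the lowest at 20.5 and 37.7 FPKM, still at percentile 95.1, and its libraries differed more than those of the other 4.

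Genes of the neural plate border were present in part. Of 21 border genes in the table, 13 reached 1 FPKM and 7 reached 10 FPKM, and the median percentile was 75.2. After tfap2a the highest was prdm1a, a zinc-finger factor acting in border and crest induction, at 52.7 and 52.0 FPKM. Next came pax7b, zic2b at 26.1 and 28.5 FPKM, pax3a at 22.9 and 24.4 FPKM and msx1b, named msxb in the table, at 16.5 and 16.0 FPKM. The range of pax7b took in those of zic2b and pax3a, so the order of pax7b among them is not resolved, and the other ranges in this order did not overlap. Pax7a had 9.02 and 12.5 FPKM and tfap2c 3.72 and 4.96 FPKM. Among the zic genes, which encode zinc-finger factors of the dorsal neural tube, zic2b was the main member. Zic1 was at 0.150 and 0.115 FPKM, and zic5 and zic6 were listed at 0 in both libraries.

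Crest specifiers had the highest median of all 18 cell-type lists examined. This list also holds genes that are not restricted to crest, such as mycn and id1, so its place is not by itself a trait of crest cells. Of 43 in the table, 35 reached 1 FPKM and 25 reached 10 FPKM, and their median percentile was 90.4, with 90.7 in the 5 ng and 90.1 in the 10 ng library. Id1, an inhibitor of basic helix-loop-helix factors and a target of BMP signals, led with 196 and 174 FPKM. Mych, a Myc-family factor, followed with 163 and 188 FPKM, a range that overlapped that of id1. Mycn had 137 and 152 FPKM, tfap2a and sox10 the values above, and zeb2a, a zinc-finger repressor of E-cadherin, 129 and 142 FPKM. Neighbours from mycn to zeb2a overlapped in range. Within each library their order was the same, mycn, tfap2a, sox10 and zeb2a, by small steps. Libraries that may be technical replicates do not settle that order.

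Among the Snail repressors, which act when crest cells leave the epithelium, snai1b was the main gene at 94.4 and 102 FPKM. Snai2, chosen after its values were seen because it is the classical crest Snail gene of chick and frog, had 9.88 and 12.2 FPKM, and snai3 was listed at 0 in both. Foxd3, a forkhead factor of premigratory crest, was close to absent, at 0.659 and 0.000745 FPKM. Sox9b and ets1, factors of early and cranial crest that were also picked after their values were seen, had 10.6 and 10.4 FPKM and 56.9 and 60.9 FPKM. Twist2 and sox8a were listed at 0 in both libraries. These cells thus held high sox10, twist1a and snai1b messages with little foxd3. An entry at 0 in this kind of table can also be a failed estimate: mcm2, a helicase subunit of DNA replication, was listed at 0 in both libraries while its partner mcm7 had 100.4 and 103.5 FPKM.

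**Figure D1:**
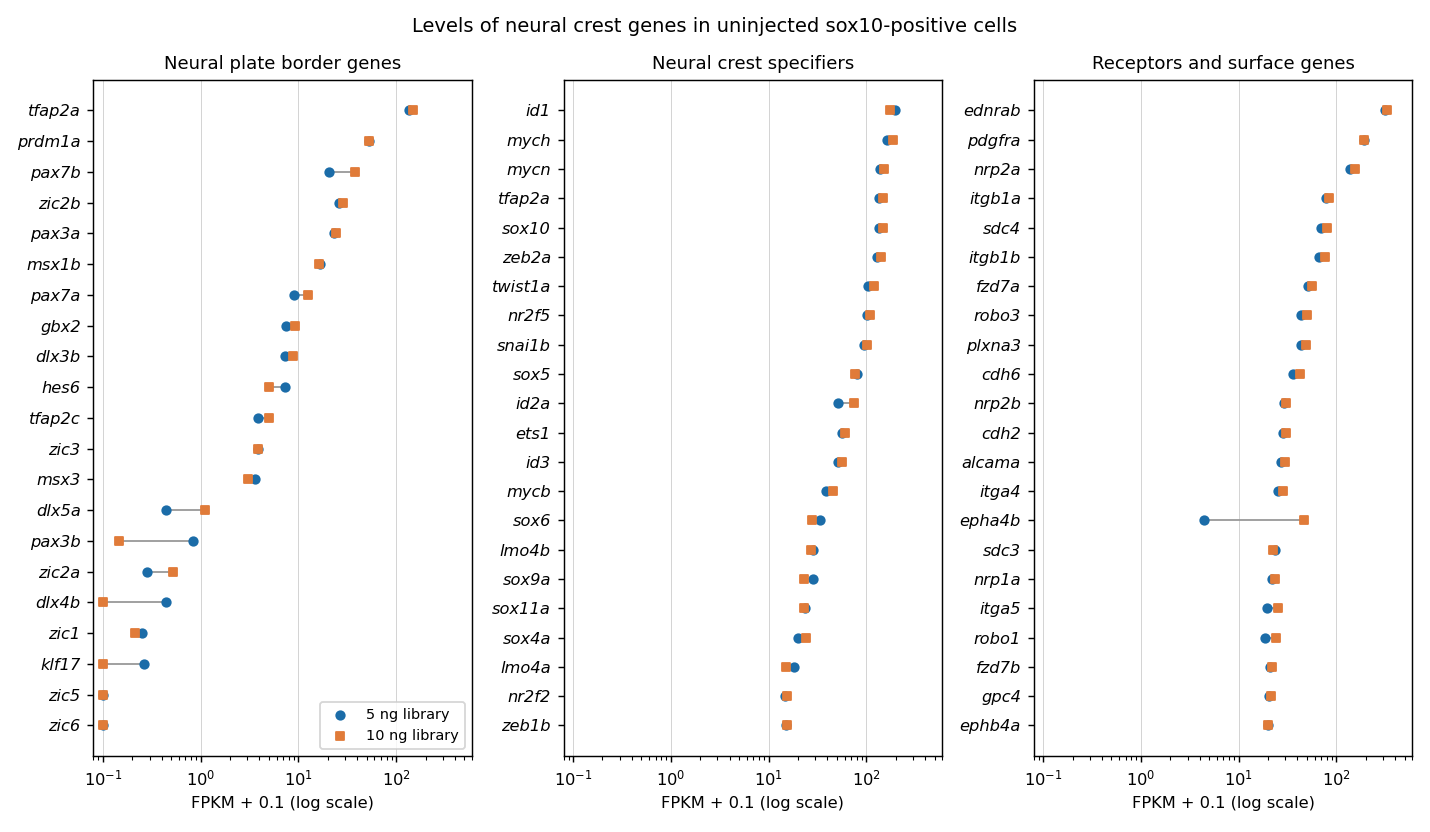
FPKM plus 0.1 on a log axis for up to 22 genes of the border, specifier and receptor lists, ordered by mean, with a circle for the 5 ng library and a square for the 10 ng library, and lines joining them. Most pairs of points lie close together, while epha4b stands at 4.28 FPKM in the 5 ng and 46.5 FPKM in the 10 ng library.

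The list of receptors and adhesion proteins of crest cells had the second highest median. It too holds genes that are not restricted to crest, such as the beta-1 integrin genes. Of 67 in the table, 48 reached 1 FPKM and 29 reached 10 FPKM, with a median percentile of 80.2. Ednrab came first. Pdgfra, a receptor for platelet-derived growth factors on cranial crest, was at 189.4 and 189.7 FPKM, and another entry of the same name had 154 and 187 FPKM, so that fragments of this gene may be divided over 2 entries. Nrp2a, a neuropilin co-receptor for semaphorins, had 139 and 156 FPKM. These 3 receptors did not overlap in range with their next lower neighbours.

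Adhesion genes filled the next places. Itgb1a and itgb1b, which encode the beta-1 integrin chain that binds fibronectin and laminin with its alpha partners, had 77.4 and 84.3 FPKM and 66.1 and 76.8 FPKM, and sdc4, a heparan sulfate proteoglycan of focal adhesions, had 68.8 and 79.8 FPKM. Several cadherins were present, and the following were chosen after their values were seen: cdh6 at 36.3 and 42.8 FPKM, cdh2 (N-cadherin) at 28.0 and 30.5 FPKM, cdh11 at 13.8 and 15.4 FPKM and cdh1 (E-cadherin) at 8.77 and 12.6 FPKM. Cdh6, cdh2 and cdh11 were thus listed above cdh1, with no overlap for cdh11 and cdh1. Cdh4 and cdh7a, cadherins of the same list, were not among its members with a mean of 10 FPKM or more.

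Receptors named for single crest lineages differed in level. Erbb3b, the neuregulin receptor of crest-derived glia, had 15.8 and 14.2 FPKM, at percentile 90.4, and its duplicate erbb3a was listed at 0 and at 0.0397 FPKM. The following were chosen for their low levels after their values were seen. Kita, the Kit receptor of melanoblasts, was at 0.0348 and 0.563 FPKM, ltk, a receptor kinase of iridophores, at 0.738 and 0.473 FPKM, and ret, the receptor of enteric crest, at 0.776 and 1.78 FPKM. Cxcr4a, a chemokine receptor, was at 0.366 and 0.226 FPKM. The duplicates of kita and cxcr4a on the same list were higher, kitb at 1.03 and 1.08 FPKM and cxcr4b at 5.13 and 5.47 FPKM. Pdgfrb, the other platelet-derived growth factor receptor, plxnd1 and itgb3a were listed at 0 in both.

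Lineage genes stood well below the specifiers. For the pigment lineage, 13 of 32 genes in the table reached 1 FPKM, a share close to that of all ranked genes, 4 reached 10 FPKM, and the median percentile was 48.7. Mitfa, the master factor of melanocytes, was at 0.210 and 0.162 FPKM, and dct, a melanin synthesis enzyme, was at 0.119 FPKM in the 5 ng library and listed at 0 in the 10 ng library. Tyr, encoding tyrosinase, was at 1.19 and 6.41 FPKM and pmela, a melanosome matrix protein, at 3.72 and 2.06 FPKM. Tfec, oca2, pnp4a, mlpha and slc2a15a were listed at 0 in both libraries. The 4 genes at 10 FPKM or more were the Myc-family gene mycla at 42.2 and 50.3 FPKM, the purine synthesis genes paics at 47.1 and 42.2 FPKM and gart at 28.2 and 30.2 FPKM, and trpm1b, a channel gene of melanophores, at 12.1 and 12.9 FPKM.

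Glial genes split into a few high ones and a low remainder. Of 22, 14 reached 1 FPKM and 3 reached 10 FPKM, with a median percentile of 59.1. Pmp22a, a membrane protein known from peripheral myelin, was at 278 and 272 FPKM, and slc1a3a, a glutamate transporter of glia, at 154.1 and 170.1 FPKM. Cnp, the third, differed between libraries at 13.4 and 29.3 FPKM. Myelin protein zero, mpz, was at 2.30 and 1.72 FPKM, plp1a at 1.59 and 0.595 FPKM, and mbpa, fabp7b and olig1 were listed at 0 in both. The myelin genes mpz, plp1a and mbpa were therefore at or under 2.30 FPKM in each library.

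Genes of peripheral neurons were lowest among the crest lists, with 8 of 32 at 1 FPKM or more, 1 at 10 FPKM or more and a median percentile of 42.7. That 1 gene was elavl3, a neuronal RNA-binding protein also made in the neural tube, at 12.9 and 26.6 FPKM. Phox2bb, the homeobox factor of autonomic neurons, was at 0.5 and 0.926 FPKM. Hand2 and the noradrenaline synthesis genes th and dbh were listed at 0 in both libraries.

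Genes of the arches and skeleton were mixed, with 24 of 51 at 1 FPKM or more, 9 at 10 FPKM or more and a median percentile of 53.6. Dlx2a, a homeobox factor of arch crest, had 49.7 and 55.5 FPKM, and fli1a, an Ets factor of cranial crest and of endothelium, had 45.3 and 59.5 FPKM, overlapping ranges. Alx1, an aristaless-like factor of frontonasal crest, had 30.2 and 30.7 FPKM and prrx1a 12.9 and 13.8 FPKM. Sox9a, the factor of cartilage precursors, had 28.7 and 22.9 FPKM. Barx1, hand2, dlx2b, dlx4a, matn1, six2a and foxf2b, several of which mark patterned or differentiating arch mesenchyme, were listed at 0 in both. Col2a1a, col11a1a and acana, matrix genes of this list named after their values were seen, were present. They had 10.4 and 13.4 FPKM, 11.4 and 12.4 FPKM and 3.08 and 3.29 FPKM.

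Sox10 is also made in otic cells, and some otic genes were present. Of 43, 20 reached 1 FPKM and 6 reached 10 FPKM, with a median percentile of 54.3, and 5 are shared with the crest lists. Oc90, an otolith matrix protein, had 24.4 and 21.6 FPKM, and stm (starmaker), another, had 14.7 and 11.4 FPKM. Spry4, a feedback inhibitor of FGF signalling in many tissues, led the list at 90.8 and 109 FPKM. The otic factor genes pax2a and pax8 were low, pax2a at 1.08 and 2.32 FPKM and pax8 listed at 0 in the 5 ng and at 0.801 FPKM in the 10 ng library. Other factor genes of the list were higher. Six4b had 14.6 and 21.7 FPKM, and sox9a, which is also on the crest lists, had 28.7 and 22.9 FPKM. Otomp was listed at 0 and at 0.350 FPKM, and foxi1, hmx2, fgf24, atoh1b and atp1a1a.2 were listed at 0 in both.

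Markers of 10 other groups of cells were examined as a measure of what else the sorted material held. In bulk libraries, fewer cells of a type and less RNA per cell cannot be told apart. The medians of these lists lay between percentile 30.1 (endoderm, yolk and hatching gland) and 57.6 (neural tube and brain), below the border, specifier and receptor lists. The lists were not matched for genes made in many tissues. The part of other cells in the levels above was not tested.

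Blood markers were low. Of 26 members 4 reached 1 FPKM and none reached 10 FPKM, and the list summed to 18.8 and 22.5 FPKM. Those 4 were the heme synthesis gene urod at 7.39 and 8.11 FPKM, myb at 3.54 and 3.72 FPKM, the myeloid factor spi1b at 1.07 and 2.85 FPKM and the globin gene hbae3 at 0.945 and 1.32 FPKM. Gata1a, the erythroid master factor, was at 0.135 FPKM in the 5 ng and listed at 0 in the 10 ng library, hbae1 was at 0.193 and 0.251 FPKM, and hbbe1.1, hbbe1.2, hbbe2, klf1 and ptprc were listed at 0 in both. Endothelial markers were similarly low once fli1a, which crest cells also make, was set aside: the remaining 25 summed to 9.83 and 15.2 FPKM. Kdrl, the endothelial VEGF receptor, was at 0.574 and 0.418 FPKM and cdh5, the endothelial cadherin, at 0.363 and 0.258 FPKM.

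Muscle markers summed to 137 and 139 FPKM over 34 genes, of which mef2ca, a MADS-box factor also used in cranial crest, contributed 98.6 and 93.4 FPKM. Myod1 was at 0.0227 and 0.678 FPKM, myf5 listed at 0 and at 0.149 FPKM, and myog at 0.510 FPKM in the 5 ng and listed at 0 in the 10 ng library. Tnnt3b, a fast-muscle troponin, stood apart from these at 18.5 and 25.1 FPKM, while its duplicate tnnt3a and the fast myosin myhz2 were listed at 0 in both.

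Keratin genes were the highest members of the epidermal list. Krt8 was at 100.2 and 102.4 FPKM, krt18 at 19.2 and 19.3 FPKM, krt4 at 16.1 and 17.5 FPKM and krt5 at 4.42 and 8.22 FPKM. Krt8 and krt18 also serve as notochord markers and encode general simple-epithelial keratins. Epcam, the epithelial adhesion molecule, was at 0.847 and 0.509 FPKM, and krt15, grhl3, foxi3b, pkp1a and and2 were listed at 0 in both. The whole list of 43 had 20 members at 1 FPKM or more, 5 at 10 FPKM or more and summed levels of 195.5 and 210.5 FPKM, with 1 member, cdh1, shared with the crest lists.

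Neural tube genes had the highest median among the other cell types, with 22 of 44 at 1 FPKM or more and 5 at 10 FPKM or more. Her9, a Hairy-related repressor, was at 119 and 136 FPKM, tubb5 at 27.2 and 37.4 FPKM and mafba, a hindbrain factor also made in crest, at 17.4 and 21.96 FPKM. The others at 10 FPKM or more were elavl3, at 12.9 and 26.6 FPKM, and notch3, at 17.8 and 18.5 FPKM. The SoxB1 genes of neural progenitors were lower, with sox19a at 6.70 and 8.71 FPKM, sox2 at 4.73 and 3.96 FPKM, sox3 at 2.84 and 2.94 FPKM and sox1a at 0.0444 FPKM and listed at 0. Sox10 was listed far above every SoxB1 gene named, but the cells were sorted for sox10, so this is no independent measure of neural tube content.

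Of 24 genes of the notochord, floor plate and hypochord, 10 reached 1 FPKM and 4 reached 10 FPKM, a share of 16.7% at 10 FPKM or more, and the list summed to 177 and 182 FPKM. Those 4 were the keratin genes krt8, at 100.2 and 102.4 FPKM, and krt18, at 19.2 and 19.3 FPKM, the sulfatase gene sulf1, at 27.2 and 28.2 FPKM, and the collagen gene col2a1a, at 10.4 and 13.4 FPKM. Col2a1a is also on the list of arch and skeleton genes. The signal gene shha was at 0.525 and 0.683 FPKM and the notochord factor ntla at 1.15 and 1.74 FPKM, and noto and foxa2 were listed at 0 in both. Of 36 endoderm, yolk and hatching gland genes 16 were listed at 0 in both, among them sox17 and sox32, beside 7386 of all 29763 ranked genes. Apoeb, an apolipoprotein of the yolk layer, was the highest of that list at 28.9 and 27.9 FPKM. The pronephros and lateral mesoderm list of 29 and the list of 30 for other placodes had no member at 10 FPKM, with wt1a, pitx3, cryaa and cryba2a listed at 0 in both. Among 12 germ cell genes only gra passed 1 FPKM on the mean, at 1.04 and 1.62 FPKM.

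**Figure D2:**
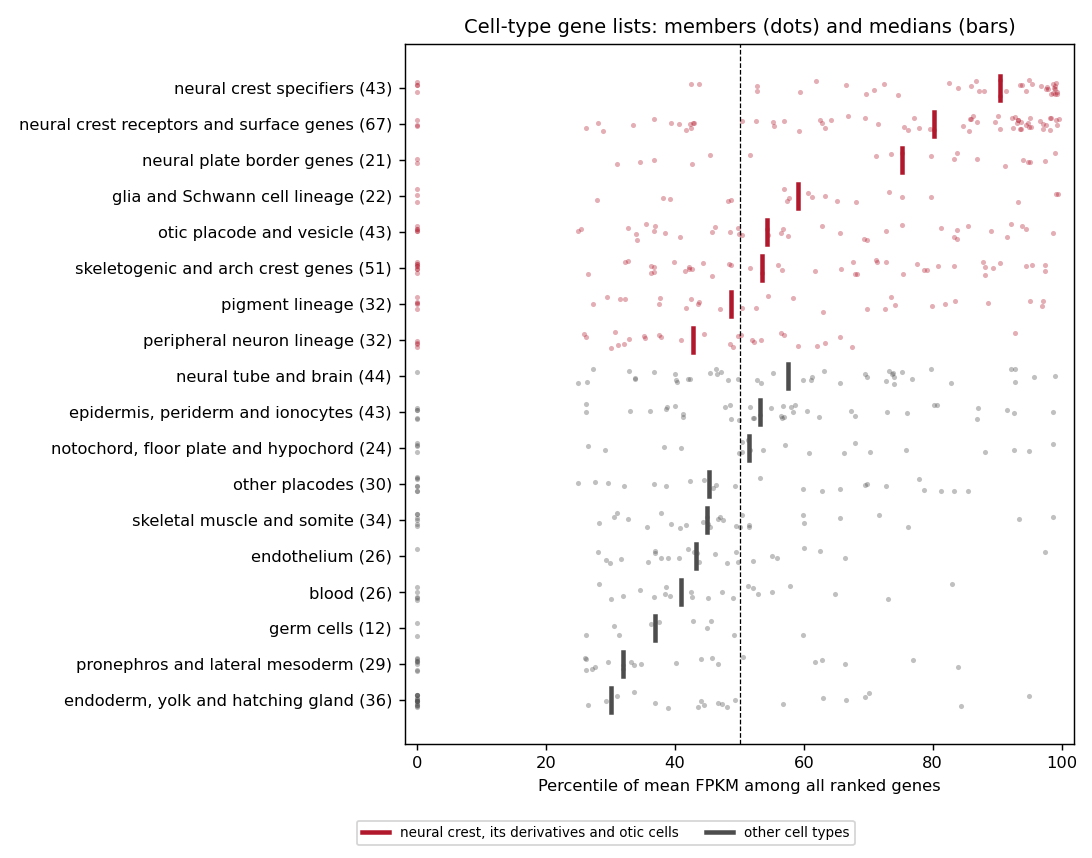
Percentile of mean FPKM among the 29763 ranked genes for every member (dots) of 18 cell-type lists, with the number of members in the table in brackets, bars at the list medians and a dashed line at 50. The medians of the specifier, receptor and border lists lie at 90.4, 80.2 and 75.2, and those of the lists of other cell types at 57.6 or lower.

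Transcription factors were ranked as a class to see which regulators were highest regardless of any crest list. Symbols of 29 families gave 747 genes, of which 366 reached 1 FPKM and 139 reached 10 FPKM. Of the 25 highest, 10 were on the specifier list and 8 belonged to the AP-1, Atf and Creb family. That family holds 55 of the 747 genes, and 43 genes of the specifier list were found in these data. The specifier list also holds genes that are not restricted to crest, such as mycn and id1. Regulators with other symbols were outside this ranking, among them zbtb16a, whose level of 302 and 343 FPKM would place it second by mean level. The first places within these families were taken by stress and immediate early factors, atf3 at 321 and 365 FPKM, junbb at 278 and 322 FPKM and fos, in the higher of its entries, at 249.8 and 289.7 FPKM, followed by id1, junba at 173 and 195 FPKM and fosl1a at 166 and 199 FPKM. Sox10 ranked 10 among the 747 by mean level and was the highest of 26 Sox genes. After sox10 in that family came sox5 at 79.6 and 76.6 FPKM.

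The 25 highest also held nuclear receptors and general factors. Nr2f5, a COUP-TF orphan receptor that is also on the specifier list, was at 102 and 108 FPKM, nr6a1a (germ cell nuclear factor) at 84.5 and 82.5 FPKM and rxraa, a retinoid X receptor, at 82.5 and 80.8 FPKM. Klf6a, a Krüppel-like factor, was at 95.6 and 106 FPKM, tcf3a at 82.8 and 79.8 FPKM, and usf2 at 69.7 and 105 FPKM. Within the AP-1, Atf and Creb family, the amino acid stress factors atf4b1 and atf4b2 had 130.3 and 133.5 FPKM and 80.7 and 94.2 FPKM, and jun had 71.3 and 87.7 FPKM. Gata, Tbx and Runx families had no member at 10 FPKM, and their highest were gata2a with a mean of 1.05 FPKM, tbx2b with 6.81 FPKM and cbfb, the partner of Runx proteins, with 6.90 FPKM.

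Hox genes record position along the body axis, in crest cells as elsewhere, with low paralog numbers marking anterior and high numbers posterior cells. Of 10 entries of paralog groups 1 to 3, 7 reached 1 FPKM. Of 21 entries of groups 4 to 9, 15 did, none with a mean above 3.76 FPKM. Of 18 entries of groups 10 to 13 none did, and 9 were listed at 0 in both libraries, beside 7386 of all 29763 ranked genes. Hoxa3a, a gene of the posterior hindbrain and the arches behind the hyoid, was the highest at 35.8 and 38.0 FPKM, and hoxb3a was next at 13.5 and 15.4 FPKM. Hoxa2b, which patterns the hyoid arch, was at 4.16 and 7.42 FPKM. Groups 1 to 3 summed to 68.1 and 76.4 FPKM, against 34.2 and 31.4 FPKM for groups 4 to 9 and 1.27 and 2.04 FPKM for groups 10 to 13. The dissociated cells were not separated by axial level, so these values sum over all sox10-positive cells of the embryo.

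**Figure D3:**
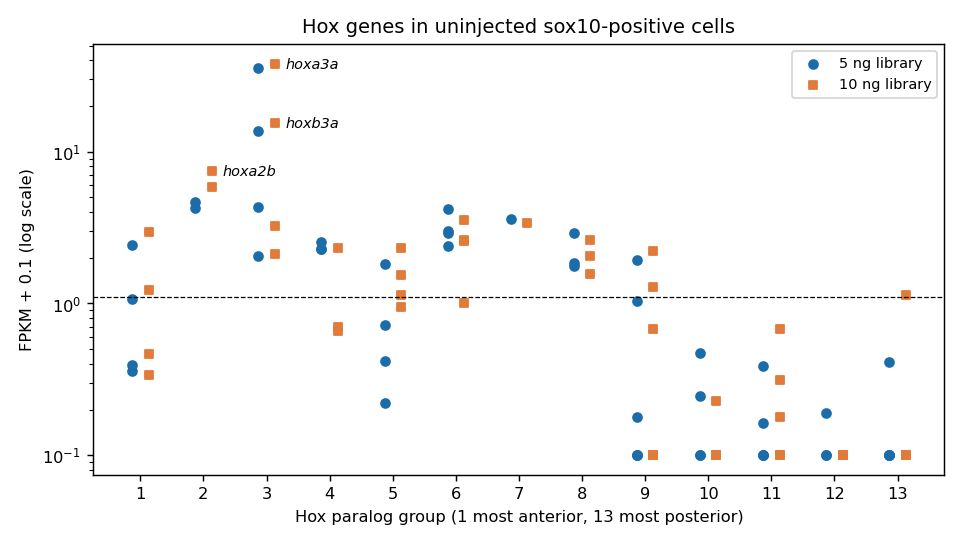
FPKM plus 0.1 on a log axis for each of 49 Hox entries by paralog group, with circles for the 5 ng and squares for the 10 ng library and a dashed line at 1 FPKM. Group 3 holds the highest points, hoxa3a at 35.8 and 38.0 FPKM, and groups 10 to 13 lie almost wholly below the line.

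Zebrafish kept many gene copies from a whole-genome duplication in the fish lineage, usually named with a final a and b. Of 2074 such symbol pairs, 616 had a higher copy of 10 FPKM or more. In 284 of these, or 46.1%, 1 copy was at least 4 times the other in both libraries on the FPKM + 1 scale, the a copy in 170 and the b copy in 114. In 150 of the 616 the lower copy was under 1 FPKM on the mean, and in 179 both copies had 10 FPKM or more. A symbol ending in a and b does not by itself prove a duplicate pair, and near-identical copies may share fragments.

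Of the pairs with a member on the crest, lineage and otic lists, 34 had a higher copy of 10 FPKM or more, and 20 of these were used unequally by the same rule. Among all pairs, ednrab with 316 and 332 FPKM over ednraa with 0.157 and 0.460 FPKM had the third largest ratio, with a log2 ratio of copy a over copy b of -7.96 on FPKM + 1. Slc1a3a with 154.1 and 170.1 FPKM stood over slc1a3b, listed at 0 and at 0.0823 FPKM, and pmp22a with 278 and 272 FPKM over pmp22b with 2.69 and 0.809 FPKM. Zeb2a over zeb2b, snai1b over snai1a, pax3a over pax3b, zic2b over zic2a, erbb3b over erbb3a and dlx2a over dlx2b passed the same rule. Both copies were used at like levels for itgb1a and itgb1b, at a ratio of 0.18 on the log2 scale, and for the type II collagen genes col2a1a and col2a1b, at 0.18. Sox9a exceeded sox9b by 1.21 on the log2 scale and pax7b exceeded pax7a (a over b, -1.31), short of the 4-fold rule.

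The other pairs with the largest ratios were of general genes. Rps8a, a ribosomal protein gene, stood at 968 and 875 FPKM over rps8b, listed at 0 and at 0.0556 FPKM. Hmga1a, a chromatin protein, had 1188.6 and 1249.8 FPKM over hmga1b with 1.66 and 2.58 FPKM. Pabpc1a had 976 and 1043 FPKM over pabpc1b with 2.46 and 5.83 FPKM. Eif3ba, aldoaa and nid2a had duplicates listed at 0 in both libraries, and fkbp1aa, slc25a3b and klf6a, like them, stood over copies under 0.5 FPKM.

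**Figure D4:**
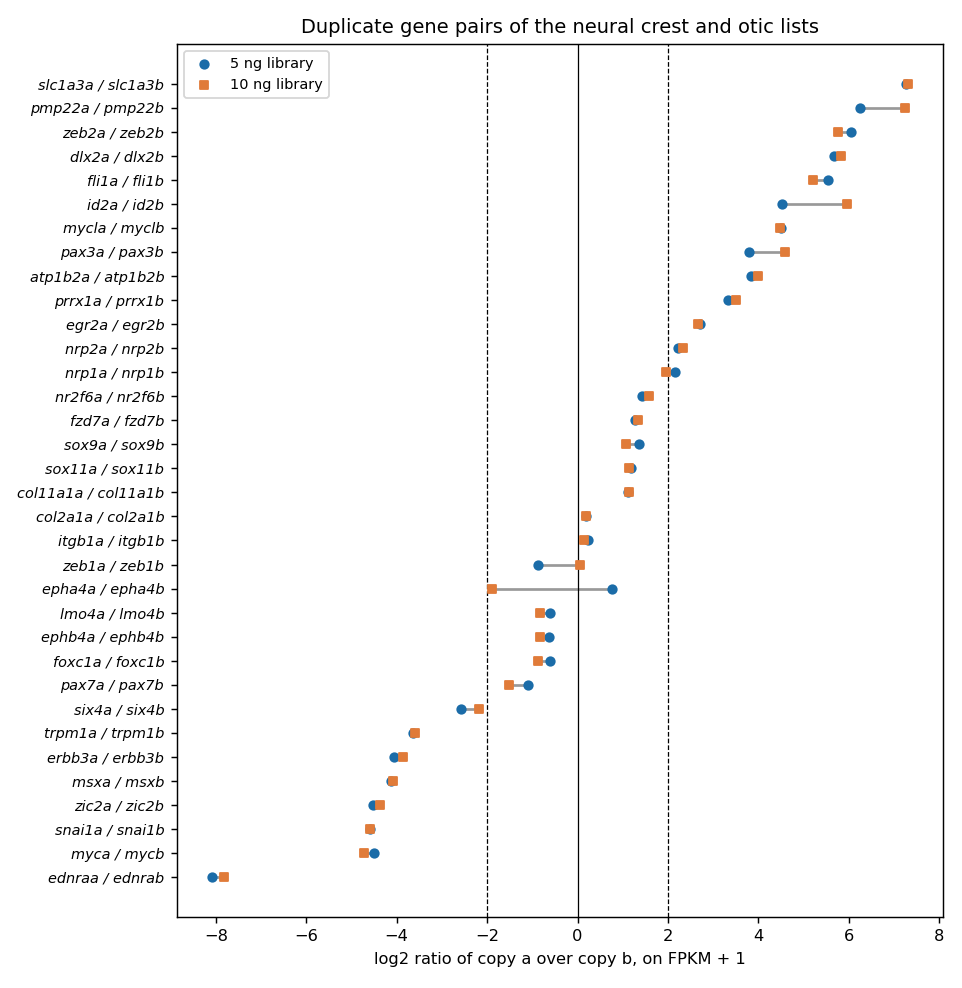
Log2 ratio of copy a over copy b on FPKM + 1 for the 34 pairs of the crest, lineage and otic lists whose higher copy had 10 FPKM or more, with circles for the 5 ng and squares for the 10 ng library and dashed lines at 4-fold. In 12 pairs copy a and in 8 pairs copy b lies beyond the line in both libraries, and epha4a / epha4b points in opposite directions in the 2 libraries.

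In the signalling lists, receptor, effector and feedback genes held the first places. In the Wnt list 47 of 75 genes reached 1 FPKM and 22 reached 10 FPKM. Ctnnb1 (beta-catenin) led with 223 and 227 FPKM, followed by ctnnb2 at 55.5 and 60.8 FPKM and the receptor fzd7a at 51.6 and 56.6 FPKM. The ligands wnt1, wnt10a, wnt10b, wnt6b and wnt16 were listed at 0 in both. In the FGF list 38 of 57 reached 1 FPKM and 15 reached 10 FPKM, led by the feedback inhibitors dusp6 at 168 and 193 FPKM, spry4, dusp4 at 54.0 and 61.2 FPKM and dusp5 at 52.5 and 48.8 FPKM, while the ligand genes fgf3 and fgf8a were at 0.455 and 0.386 FPKM and at 0.696 and 0.321 FPKM, and fgf4, fgf8b and fgf10a were listed at 0 in both.

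Target and receptor genes led the list of BMP genes, and Hairy-related and receptor genes that of Notch genes. In the BMP and TGF-beta list 33 of 58 reached 1 FPKM and 13 reached 10 FPKM, led by the target genes id1, id2a at 50.8 and 74.2 FPKM and id3 at 51.9 and 56.1 FPKM and the receptors bmpr1bb and bmpr1aa at 29.5 and 34.5 FPKM and at 29.9 and 27.1 FPKM. The ligand gene bmp4 was at 0.250 FPKM and listed at 0, and bmp2a and bmp5 were listed at 0 in both. In the Notch list 34 of 50 reached 1 FPKM and 10 reached 10 FPKM. The Hairy-related gene her9 was first, and whether Notch drives it in these cells was not tested. The receptor notch1a followed at 34.3 and 38.7 FPKM in the highest of its entries, and her6 had 35.8 and 28.4 FPKM.

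Of 45 hedgehog and retinoic acid genes 30 reached 1 FPKM and 12 reached 10 FPKM. The retinoid receptors rxraa and rargb were at 82.5 and 80.8 FPKM and at 46.3 and 51.3 FPKM, and cdon, a hedgehog co-receptor, at 56.0 and 57.8 FPKM. The hedgehog receptor and target gene ptch1 had 23.97 and 32.0 FPKM in the higher of its 2 entries. Shha was at 0.525 and 0.683 FPKM, and dhh and ihha were listed at 0 in both. Among guidance ligands 23 of 44 reached 1 FPKM and 5 reached 10 FPKM, led by the ephrins efnb1 at 18.3 and 19.6 FPKM and efna1a at 13.2 and 15.7 FPKM, and sema3d, a secreted semaphorin of crest, had 2.93 and 3.70 FPKM.

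Since other embryos of the series were given progesterone, the baseline level of its receptors is of use. Pgr, the nuclear progesterone receptor, was listed at 0 in the 5 ng library and had 0.121 FPKM in the 10 ng library. The membrane-associated progesterone-binding genes pgrmc1 and pgrmc2 had 16.5 and 14.2 FPKM and 13.7 and 14.1 FPKM, at percentiles 90.7 and 89.7. The membrane progestin receptor genes paqr7a and paqr8, with paqr9, were listed at 0 in both libraries. Other genes of that family are not reported here, so these zeros do not cover it. Of 29 genes on the steroid receptor list, which also holds hsp90ab1, 17 reached 1 FPKM and 10 reached 10 FPKM. Nr3c1, the glucocorticoid receptor, had 4.05 and 4.91 FPKM, while nr3c2, ar and esr1 stayed under 1 FPKM in each library. Hsp90ab1, the chaperone that holds steroid receptors ready for hormone, was at 2861 and 3532 FPKM, and fkbp4, its co-chaperone, at 80.4 and 84.8 FPKM.

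Transcripts of matrix and remodelling genes were measured in the sorted cells. Of 99 in the table, 60 reached 1 FPKM and 27 reached 10 FPKM, with a median percentile of 67.1. Serpinh1b, the collagen chaperone of the endoplasmic reticulum, led with 659 and 695 FPKM. Some basement membrane genes followed, namely nid2a at 116 and 113 FPKM, col15a1b at 100.2 and 106.7 FPKM and lama1 at 68.4 and 79.2 FPKM. Such genes varied in level, as others chosen after their values were seen show. Lamb1a had 44.6 and 50.8 FPKM, lamc1 32.5 and 38.8 FPKM and hspg2 22.4 and 25.5 FPKM. Lama2, lamb2 and nid1a had means under 1 FPKM. Of type IV collagen genes, col4a5 had 45.9 and 49.2 FPKM and col4a6 34.1 and 41.0 FPKM. Col4a1 was listed at 0 and at 0.0636 FPKM and col4a2 at 0.141 and 0.116 FPKM. P4hb, a subunit of collagen prolyl hydroxylase, had 53.1 and 55.9 FPKM and fbn2b 48.4 and 51.1 FPKM. Fibronectin was lower, with fn1a at 11.9 and 15.6 FPKM and fn1b at 1.31 and 1.77 FPKM. The versican genes vcana and vcanb were at 2.35 and 0.686 FPKM and at 0.0993 and 0.485 FPKM, and has1, postna, elna, elnb, bgna, tnxba, adamts1, adamts15a and ctgfb were listed at 0 in both.

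Counted gene by gene, glycolytic genes were listed below those of the respiratory chain, with a median of 1.05 FPKM beside 16.3 FPKM. The 2 lists differ in make-up. The glycolysis list holds more than 1 isozyme for most steps. Of its 52 genes 10 were listed at 0 in both libraries, beside 4 of the 81 respiratory chain genes and 7386 of all 29763 ranked genes. The sums over isozymes given below show the level per step. Of 52 genes of glucose uptake and glycolysis, 26 reached 1 FPKM and 7 reached 10 FPKM, a share of 13.5% at 10 FPKM or more beside 13.9% of all ranked genes. Aldoaa, an aldolase gene, led the list at 134 and 153 FPKM, and all aldolase genes together came to 192 and 220 FPKM. Summed over isozymes, lactate dehydrogenase came to 28.5 and 34.1 FPKM, hexokinase to 28.0 and 27.2 FPKM, glyceraldehyde-3-phosphate dehydrogenase to 19.1 and 17.7 FPKM, phosphoglycerate kinase to 12.6 and 15.5 FPKM and phosphoglycerate mutase to 12.2 and 14.3 FPKM. The lower steps followed: glucose-6-phosphate isomerase came to 2.12 and 1.43 FPKM, phosphofructokinase to 2.34 and 4.0 FPKM, enolase to 5.10 and 2.97 FPKM, pyruvate kinase to 6.13 and 4.35 FPKM and triosephosphate isomerase to 6.04 and 2.86 FPKM. The glucose transporter gene slc2a1a was listed at 0 in both, and 7 transporter genes together summed to 11.8 and 15.0 FPKM, of which slc2a3b gave 54.4% of the mean.

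Respiration and nucleotide synthesis stood higher when counted gene by gene. Of 81 nuclear respiratory chain genes, 74 reached 1 FPKM and 55 reached 10 FPKM, with a median percentile of 91.2, led by the ATP synthase genes atp5a1 at 156 and 151 FPKM and atp5b at 130.1 and 135.4 FPKM. All 13 mitochondrially encoded protein genes were above 10 FPKM, with mt-co1 first at 1077 and 1086 FPKM, and together they made up 1.1% and 1.12% of summed FPKM. Slc25a5, the ADP/ATP carrier of the inner membrane, had 929.8 and 909.96 FPKM. Fabp3, a fatty-acid-binding protein, had 562 and 625 FPKM, yet of 61 genes of sterol and fatty acid metabolism only 5 reached 10 FPKM.

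Nucleotide synthesis is the process whose failure the series concerns. For pyrimidines, 22 of 30 genes reached 1 FPKM and 13 reached 10 FPKM, with a median percentile of 83.9. Cad, the trifunctional enzyme of the opening steps, had 167 and 186 FPKM. Dhodh, the mitochondrial dihydroorotate dehydrogenase that follows and the target of leflunomide, was the lowest of the de novo genes cad, dhodh and umps at 5.87 and 10.4 FPKM. Umps, which completes uridine monophosphate, had 30.2 and 34.9 FPKM. The ribonucleotide reductase genes rrm2 and rrm1 had 127 and 128 FPKM and 57.3 and 51.5 FPKM. The ranges of cad, umps and dhodh did not overlap.

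For purines, 21 of 33 genes reached 1 FPKM and 15 reached 10 FPKM, with a median percentile of 84.7. Prps1a, a synthetase of the ribose donor, led with 89.5 and 106 FPKM, and gmps, which makes guanosine monophosphate, had 60.9 and 84.4 FPKM. Between them and ppat, the committed step at 16.1 and 13.2 FPKM, lay paics, pfas at 43.8 and 39.5 FPKM and atic at 37.8 and 37.8 FPKM. Adsl, at 9.80 and 7.93 FPKM, was the lowest of the genes on the path to inosine monophosphate. Of serine and one-carbon genes and the pentose phosphate path, 26 of 32 reached 1 FPKM, with mat2aa at 76.6 and 78.8 FPKM and shmt1 at 39.5 and 43.5 FPKM among the highest.

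The machinery named in the study's title and design was well represented. Ddx21, a nucleolar RNA helicase, had 82.6 and 104 FPKM, at percentile 98.6. The PAF1 complex genes ctr9, paf1, leo1, cdc73 and rtf1, whose products travel with RNA polymerase II, lay between 11.7 FPKM (paf1 in the 5 ng library) and 23.0 FPKM (cdc73 in the 5 ng library), with ctr9 at 16.8 and 19.95 FPKM. Wdr61, also on the PAF1 complex list and named after its values were seen, was its lowest gene by mean, at 10.6 and 14.8 FPKM. Below cdc73 the neighbours in order of mean, wdr61 included, overlapped in range. Rtf1 was above ctr9 and ctr9 above paf1 in each library, while leo1 was above paf1 and wdr61 in the 5 ng library only. Of 31 elongation genes, 28 reached 1 FPKM, led by supt16h, a subunit of the FACT histone chaperone, at 65.3 and 76.2 FPKM, and cdk9, the kinase that releases paused polymerase, had 13.5 and 10.7 FPKM.

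All 57 genes of the nucleolus and RNA polymerase I reached 1 FPKM, and 53 reached 10 FPKM, with a median percentile of 95.1. Npm1a (nucleophosmin) had 624 and 662 FPKM and ncl (nucleolin) 343.8 and 379.9 FPKM. Nop56 and nop58, proteins of the small nucleolar particles that modify ribosomal RNA, had 186 and 209 FPKM and 135 and 152 FPKM. Ribosomal protein genes taken by name made up 10.4% and 10.97% of summed FPKM.

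Cycling genes were high. Of 63 cell cycle genes 56 reached 1 FPKM and 45 reached 10 FPKM, with a median percentile of 93.4. Plk1, a mitotic kinase, had 261 and 335 FPKM, pcna, the clamp of DNA replication, 186 and 215 FPKM, and mki67 72.2 and 87.0 FPKM. Ccnd1, the G1 cyclin, had 101 and 109 FPKM.

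Immediate early and dissociation stress genes were also high, but no undissociated cells were compared, so whether handling raised them was not tested. Of 53, 48 reached 1 FPKM and 39 reached 10 FPKM, with a median percentile of 95.5. Beside atf3 and junbb came heat shock genes, with hspa8 at 1855 and 2048 FPKM. Hsp70.2 had 705 and 773 FPKM, hsp70.3 696 and 764 FPKM and hsp70l 582 and 623 FPKM. The fos entry given above is not among the 53 genes. Nr4a2a, which is, was listed at 0 in both libraries. Near-identical hsp70 copies may share fragments, so single values of that family are uncertain. Their part in the levels of the other genes was not tested.

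The 2 libraries were close at high levels and less so at low ones. Across the 13014 genes with a mean of 1 FPKM or more, the log2(FPKM + 1) value of the 10 ng library exceeded that of the 5 ng library by 0.12 in the median, and the absolute difference had a median of 0.27. For means of 100 FPKM or more, 95% of genes lay within 1.36-fold on FPKM + 1, and for means of 1 to 2 FPKM within 2.71-fold. Adding 1 compresses low values, so on FPKM itself low genes differed more between the libraries than these limits say, as for hoxa5a at 0.320 and 2.23 FPKM. The spread is that between these 2 libraries, which may be technical replicates.

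A few named genes went beyond this spread. Epha4b, an Eph receptor, was at 4.28 FPKM in the 5 ng and 46.5 FPKM in the 10 ng library, and ptpn20, cmc2, rfc1 and gle1 were also among the 10 genes with the largest excess in the 10 ng library, rfc1 at 8.66 and 40.0 FPKM. In the other direction the 10 largest differences were all entries named here only by a clone and listed at 0 in the 10 ng library. The largest was AC024175.4, at 35964 FPKM in the 5 ng library, where it was 9.80% of summed FPKM, and listed at 0 in the 10 ng library. Small non-coding RNA took 13.2% and 16.4% of summed FPKM. Of the 60 border, specifier and receptor genes with a mean of 10 FPKM or more, 4 differed by more than 1.5-fold between libraries, namely epha4b, zeb1a, pax7b and itga9, the last 3 at 7.72 and 15.7 FPKM, 20.5 and 37.7 FPKM and 16.6 and 10.9 FPKM in the 5 ng and the 10 ng library.

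**Figure D5:**
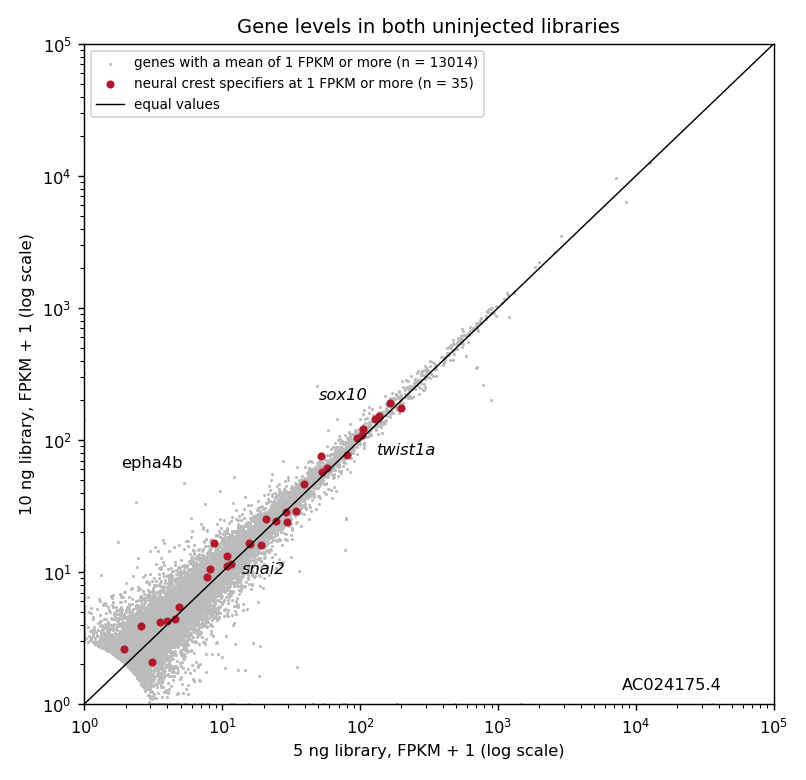
FPKM + 1 in the 10 ng library against the 5 ng library on log axes for the 13014 genes with a mean of 1 FPKM or more (grey), the 35 crest specifiers among them (red) and the line of equal values. The specifiers follow the line, epha4b lies above it at 4.28 and 46.5 FPKM, and AC024175.4 lies at the lower right edge, at 35964 FPKM in the 5 ng library and 0 in the 10 ng library.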

How the data were processed

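The values are FPKM per gene as the authors deposited them, in 1 table with 6 library columns. Only the 2 columns of uninjected DMSO libraries were used, and the other 4 columns were not used here. Reads passed through cutadapt, TopHat2 (2.0.11) and then, for the FPKM, Cufflinks (2.2.1), to judge by the names in the submitters' processing notes, which also name Zv9 and hg19 as builds without saying what each was for. Columns were matched to the group by name, and neither could be tied to a numbered experiment. A stray header line was removed (1 row), which left 33827 entries, 92 of them ERCC spike-ins, whose amounts are not in the labels.

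Entries with names of small non-coding RNA (3972) were not ranked. Of 1716 list symbols 1596 were found, by the table's name or through a name table, and where a name had several entries the highest was used unless that table now gives it another name. Python 3.11.15 with pandas 2.3.3 and numpy 2.4.6 computed the means, percentiles and ratios, with a pseudocount of 1 FPKM for ratios. The ranking, ratio and agreement calculations were tested on simulated data. The libraries described, the members and the lists were chosen with earlier results of these data known. Named genes are the first 5 and 6 highest members of a list, those at 0 in both libraries, the 25 highest regulators and ranked genes, the 12 most unequal pairs and the 10 largest library differences each way. Zic1, erbb3a, pgrmc2, the Hox genes, the highest members of the Gata, Tbx and Runx families, crest pairs beyond those 12 and crest genes that differ between libraries were named after their values were seen, as were those so marked in the text. No sequences are shown, and no coordinates were used. A few list members are not reported here.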

Additional observations from a re-analysis of the deposited data

How the results depend on the processing

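No paired analysis was possible because only 1 group was described and its columns carry no experiment number. With a limit of 5 FPKM in place of 1 FPKM, 6829 genes counted as listed in place of 13014, while limits of 0.5 FPKM or of 1 FPKM in both libraries kept the count within 1.5 times. The median percentile of the crest specifiers was 91.1 with small non-coding RNA ranked as well and 86.0 among genes with a mean of 1 FPKM or more, where the specifiers, receptors and border genes kept the first 3 places of the 18 lists. In that narrower ranking glial genes moved to place 14 and pigment genes to place 5. The median absolute log2 difference between libraries was 0.32 with a pseudocount of 0.1, 0.16 with a pseudocount of 5, 0.16 with no filter on low values and 0.24 after median-ratio scaling, beside 0.27. With small non-coding RNA left out of the total, mitochondrially encoded protein genes took 1.3% and ribosomal protein genes 12.5% of summed FPKM. Taking either library alone gave 12764 to 13098 genes at 1 FPKM or more and 299 to 315 unequal pairs beside 284. Specifier medians were then 90.1 to 90.7. Shares were 13.2% to 16.4% for small non-coding RNA, 1.1% to 1.12% for mitochondrially encoded protein genes and 10.4% to 10.97% for ribosomal protein genes. Pair counts stayed within 1.5 times of 284 with a pseudocount of 0.1, a fold of 2 or a higher copy of 5 FPKM. With no fragment counts, no level has a limit of detection, and the lists of germ cells, endoderm and pronephros had a median percentile of 0 in 1 of the libraries.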

Other observations

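Several genes outside the lists, all chosen after their values were seen, stood as high as the crest specifiers. Zbtb16a, a zinc-finger repressor known from progenitor cells, had 302 and 343 FPKM in the 5 ng and the 10 ng library, at percentile 99.6. Sall4 and lin28a, factors of embryonic progenitors, had 115 and 125 FPKM and 106 and 91.0 FPKM. Igf2bp1, an RNA-binding protein of early development, had 178 and 186 FPKM. Of structural genes, tpm4a, a tropomyosin, had 197 and 201 FPKM and marcksb, an actin-linked membrane protein, 159 and 165 FPKM, while vim, encoding vimentin, was low at 2.17 and 3.49 FPKM. The gap junction gene cx43.4 had 79.5 and 84.5 FPKM and angptl4, a secreted regulator of lipoprotein lipase, 72.9 and 72.5 FPKM.

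The highest entries of the table carry clone names only, among them AC024175.17 at 12729 and 12563 FPKM and BX511182.1 at 7177 and 9730 FPKM, and what they encode was not analysed here. Of entries without small RNA names that were at 0 in 1 library and at 10 FPKM or more in the other, 23 had clone names and 4 had other names. ERCC spike-in transcripts summed to 1.96 FPKM in the 5 ng and 22.4 FPKM in the 10 ng library, with 8 and 12 of 92 above 0.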
